A study of Homo sapiens with 12 samples.

Results

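The retinoid receptors and target genes of all-trans retinoic acid (ATRA) were followed in the HL-60/S4 cell line, an established line of human myeloid leukemia cells. The 10 genes were chosen by name: *RARA*, *RARB*, *RARG*, *RXRA*, *CYP26A1*, *CYP26B1*, *DHRS3*, *DHRS9*, *TGM2* and *CD38*. All 10 were found by their identifiers among the 58288 genes counted. Total RNA depleted of ribosomal RNA was sequenced in 12 libraries, 3 in each of 4 groups. Promyelocytes were undifferentiated cells that received water as vehicle or TNF-α at 16 ng/mL for 2 h. Granulocytes were cells of the same line held for 4 days in 1 µM ATRA. They then received water or TNF-α at the same dose and for the same time, in fresh medium that again held 1 µM ATRA. They were suspended at a lower cell density than promyelocytes. Cells of all groups came from a seed lot of the line, were at 8 passages and were treated in medium supplemented with calcium. The promyelocyte and the granulocyte experiments were run independently. When levels or responses are compared between them, ATRA, cell type, cell density and experiment therefore cannot be told apart. Only the comparisons of TNF-α with vehicle lie within an experiment.

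ATRA acts through retinoic acid receptors (RARs), which bind DNA as heterodimers with retinoid X receptors (RXRs). The pairs sit on response elements made of repeated half-sites, hold corepressors there without ligand and recruit coactivators once ATRA is bound. Among the best known targets are *RARB* itself and genes that limit the ligand, such as the CYP26 enzymes that oxidize retinoic acid. In myeloid leukemia cells ATRA drives differentiation towards granulocytes, and *CD38* and *TGM2* are classic genes induced on the way. TNF-α is an inflammatory cytokine that acts through NF-κB, whose binding sites are called κB sites.

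The letters of such sites were searched in the promoter windows that RefSeq gives for the members (build GRCh38.p14), each holding 250 bases before a transcription start and 50 bases from it. Windows were at hand for 9 of the 10 members, 21 in all, and *TGM2* had none. A DR5 was defined as 2 half-sites in the same direction with 5 bases between them, each half-site being AGGTCA, its variant AGTTCA, or GGGTCA with its variant GGTTCA, on either strand. Among 35116 windows of all genes 31 held a DR5 (0.0883%), and among the 21 windows of the members 2 did, those of *RARB* and *CYP26A1*. Both are shown because they carry the repeat to which RAR and RXR classically bind, each read 5′ to 3′ along the strand of the repeat.
RARB site: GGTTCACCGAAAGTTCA
CYP26A1 site: AGTTCACCCAAAGTTCA
The *RARB* site lay at chr3:25428210-25428226 on the plus strand, 53 to 37 bases before the start, within an intron of the gene as counted here. The *CYP26A1* site lay at chr10:93073803-93073819 on the minus strand, opposite to the gene, 90 to 74 bases before the start and within an exon of the gene as counted. The 250 bases before the *RARB* start, chr3:25428013-25428262 on the plus strand, show the repeat in capitals in its surroundings.
RARB promoter: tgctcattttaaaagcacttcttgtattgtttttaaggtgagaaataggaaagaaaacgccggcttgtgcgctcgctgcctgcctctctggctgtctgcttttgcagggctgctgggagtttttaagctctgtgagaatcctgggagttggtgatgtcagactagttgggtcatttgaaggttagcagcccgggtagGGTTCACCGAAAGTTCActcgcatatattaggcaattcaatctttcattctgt
With 1 base between the half-sites (DR1) 46 windows of all genes (0.131%) matched, and with 2 bases (DR2) 14 windows (0.0399%). No member window held either. The κB motif was found in 3956 windows (11.3%), among them 1 of the members, a window of *RARA*, at chr17:40318039-40318048 on the plus strand.
RARA site: GGGATTCTCC
The only *RARG* window and the 3 *DHRS3* windows held none of these letters. The 250 bases before the *DHRS3* start that lies farthest upstream are at chr1:12618211-12618460 on the minus strand. This start and its window lie outside the gene as counted, which spans chr1:12567910-12617731. The bases are shown because *DHRS3* had one of the widest ranges of levels among the members.
DHRS3 promoter: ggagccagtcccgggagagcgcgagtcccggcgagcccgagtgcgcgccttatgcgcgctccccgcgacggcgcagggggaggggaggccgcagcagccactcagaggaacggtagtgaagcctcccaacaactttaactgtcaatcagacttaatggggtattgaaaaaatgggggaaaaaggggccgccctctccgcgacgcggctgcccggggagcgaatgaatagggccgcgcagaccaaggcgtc
A match describes letters in a window and not binding, which was not measured in these libraries.

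Library totals ranged from 22829189 to 31895061 read pairs on genes, with a median of 28233190. Levels are given as normalized counts (CPM) scaled with TMM over the 12 libraries, and 3 counts, the floor used here, corresponded to 0.0945 to 0.136 CPM. The summed level of 5 azurophil granule genes was 7316 to 8142 CPM in vehicle promyelocytes and 2132 to 2345 CPM in vehicle granulocytes. The summed level of 7 granulocyte genes was 148 to 155 CPM and 3584 to 3761 CPM, respectively. Most of the sum in granulocytes was *CYBB* and *NCF1* (2106 and 1217 CPM on average), which averaged 113 and 10.1 CPM in promyelocytes. *LTF*, the lactoferrin of the specific granules, had no count in either of these groups. *CEACAM8* had none in promyelocytes and averaged 0.183 CPM, close to the floor, in granulocytes. Of 5 monocyte and macrophage genes, which summed to 3.86 to 4.73 CPM in vehicle promyelocytes and 49.1 to 51.2 CPM in vehicle granulocytes, *MARCO* was at 0 throughout. Nearly all of that sum was *CSF1R* (3.99 and 49.7 CPM on average), whereas *CD14* averaged 0.206 and 0.186 CPM. The part of such cells in the levels below was not tested. Genes of T and B cells reached at most 5.7 CPM in any library, and those of erythroid and of stromal or epithelial cells stayed under 1 CPM. In such bulk samples, fewer cells of a type and less RNA per cell cannot be told apart.

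The comparison of vehicle granulocytes with vehicle promyelocytes asks how the members stand in cells with and without ATRA, within the limit given above. *CD38*, *TGM2*, *DHRS3* and *RARB* stood far higher in the granulocyte libraries, and *RXRA* stood lower. Of the 9 members that passed the expression filter, 8 were higher and 1 was lower at an adjusted p under 0.05 in edgeR's quasi-likelihood test. Among the 8, *RARB* and *CYP26A1* passed the filter only through their granulocyte libraries, which in part fixed their direction beforehand. The experiments differed widely in general: of 17118 genes tested, 75.1% passed the same threshold, 36.6% higher and 38.5% lower. The median log2 difference was 2.36 for the 9 members, *RARB* and *CYP26A1* included, and -0.012 for all genes tested.

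*CD38*, a surface enzyme that consumes NAD, had 264, 190 and 287 counts in the vehicle promyelocyte libraries and 28848, 35862 and 35666 in the vehicle granulocyte libraries. Its level was 8.5 ± 1.46 CPM and 1164 ± 47.1 CPM (SD, n = 3). The log2 difference was 7.08 (standard error, SE, 0.086, edgeR adjusted p = 3.15e-32), or 135-fold. Per kilobase of exon it was the most abundant member in granulocytes, with 162, 173 and 174 CPM per kilobase.

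*TGM2*, transglutaminase 2, which crosslinks proteins, had 11, 18 and 22 counts in vehicle promyelocytes and 4258, 5065 and 5454 in vehicle granulocytes. The groups were far apart, and the promyelocyte values of 0.359, 0.662 and 0.759 CPM were a few times the floor. Its log2 difference was 8.16 (SE 0.111, edgeR adjusted p = 3.07e-31), or 287-fold.

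*DHRS3* reduces retinaldehyde to retinol and thereby turns retinoid away from ATRA synthesis. It had 31, 27 and 24 counts in vehicle promyelocytes and 6688, 7983 and 8058 in vehicle granulocytes, where its level was 264 ± 6.4 CPM (SD, n = 3). The log2 difference was 8.11 (SE 0.0893, edgeR adjusted p = 5.8e-33), or 275-fold. *DHRS9*, a dehydrogenase that can oxidize retinol, moved less. Its levels of 2.06, 1.91 and 2.48 CPM in promyelocytes and 11.7, 11.4 and 10.4 CPM in granulocytes did not overlap, with a log2 difference of 2.36 (SE 0.14, edgeR adjusted p = 1.52e-15).

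Of the enzymes that break ATRA down, *CYP26A1* had low counts and *CYP26B1* was not detected. *CYP26A1*, whose promoter holds the DR5 shown above, had 7, 4 and 16 counts in vehicle promyelocytes and 16, 20 and 24 in vehicle granulocytes. The groups touched at 16 counts but not in CPM, where the highest promyelocyte library stood at 0.552 and the lowest granulocyte library at 0.615. The log2 difference was 1.14 (SE 0.445, edgeR adjusted p = 0.0226), and the call was lost in DESeq2 (adjusted p = 0.0924). It was also lost without promyelocyte vehicle library 1 (edgeR adjusted p = 0.0744) or 2 (0.128), or without granulocyte vehicle library 3 (0.0865). The log2 difference ranged from 0.83 without promyelocyte vehicle library 2 to 1.84 without promyelocyte vehicle library 3. *CYP26B1* had 0 counts in all 12 libraries, which allows a level of up to 0.0945 to 0.136 CPM, depending on the library.

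Among the receptors, *RARB* was close to absent from promyelocytes and clearly present in granulocytes. The vehicle promyelocyte libraries held 1, 2 and 2 counts, and the vehicle granulocyte libraries held 319, 388 and 400. Over the 3 libraries of each group this made 5 against 1107 counts, a ratio of 223 after scaling (95% exact interval 95.4 to 689, counting error only). The edgeR adjusted p was 6.49e-22, for a gene that passed the expression filter only through its granulocyte libraries. The 3.32, 3.47 and 3.63 CPM per kilobase of *RARB* in granulocytes were still below every *RARA* value in the same libraries.

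*RARA*, the RAR isotype that prevails in myeloid cells, stood at 55.4, 55.0 and 52.4 CPM in vehicle promyelocytes and 70.4, 72.7 and 79.7 CPM in vehicle granulocytes. The groups did not overlap, and the log2 difference was 0.44 (SE 0.0566, edgeR adjusted p = 4.19e-08). *RARG* was low in both, with 16, 24 and 21 counts against 24, 46 and 39. Its log2 difference of 0.82 (SE 0.326, edgeR adjusted p = 0.0253) was no longer called in DESeq2 (adjusted p = 0.0801). Without promyelocyte vehicle library 1, granulocyte vehicle library 2 or granulocyte vehicle library 3 the edgeR adjusted p of *RARG* was 0.0882, 0.122 and 0.0634, respectively. *RXRA*, the common partner of the RARs, was the member that stood lower: it had 152, 156 and 144 CPM in vehicle promyelocytes and 62, 63 and 65.8 CPM in vehicle granulocytes. Its log2 difference was -1.26 (SE 0.0535, edgeR adjusted p = 3.84e-19).

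**Figure D1:**
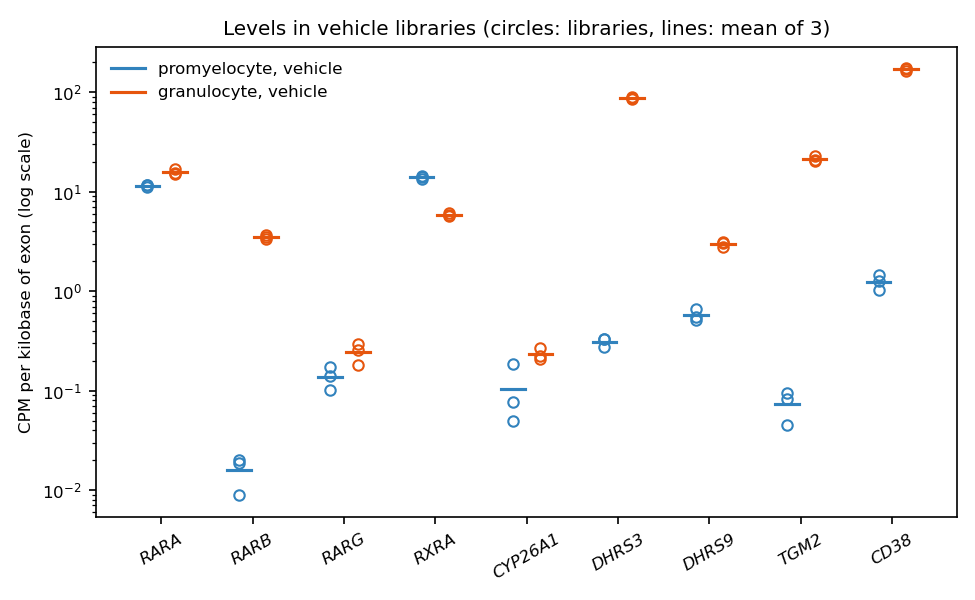
Levels of the 9 detected members in vehicle libraries in CPM per kilobase of exon, on a log scale. Circles are the 3 libraries of a group and lines their means; *CD38* and *DHRS3* lead in granulocytes, whereas *RXRA* and *RARA* lead in promyelocytes.

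Levels of different genes were compared per kilobase of exon, counted over the merged exons of each gene. In vehicle promyelocytes *RXRA* led with 13.9 ± 0.592 CPM per kilobase (SD, n = 3), followed by *RARA* with 11.5 ± 0.347 and *CD38* with 1.24 ± 0.213. *DHRS9* and *DHRS3* came next at 0.574 ± 0.0794 and 0.311 ± 0.0333. *RARG*, *CYP26A1* and *TGM2* followed between 0.138 and 0.0738 on average, and neighbours among these 3 overlapped between libraries. *RARB* was last of those detected, at 0.0158 ± 0.00606.

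In vehicle granulocytes the order was led by *CD38* with 170 ± 6.87 CPM per kilobase (SD, n = 3), *DHRS3* with 86.9 ± 2.11 and *TGM2* with 21.3 ± 1.25. *RARA* followed at 15.7 ± 1.03, *RXRA* at 5.88 ± 0.178, *RARB* at 3.47 ± 0.154 and *DHRS9* at 2.98 ± 0.176, with no overlap between neighbours. *RARG* at 0.244 ± 0.0592 and *CYP26A1* at 0.233 ± 0.0331 overlapped at the end of the order. *RARA* and *RXRA*, which stood at the head of the promyelocyte order, thus stood behind all 3 of these genes.

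The question within each experiment was which members respond to 2 h of TNF-α. In promyelocytes *RARG* and *DHRS3* rose and *RXRA* and *DHRS9* fell. Of the 7 members tested, 2 were higher, 2 were lower and 3 did not pass the threshold. *RARB*, *CYP26A1* and *CYP26B1* did not pass the expression filter. Over the 16250 genes tested 14.8% passed, 8.15% higher and 6.65% lower. The median log2 fold change was 0.28 over the 7 members, with -0.009 over all genes tested. The azurophil granule genes summed to 6061 to 6961 CPM and the granulocyte genes to 252 to 267 CPM with TNF-α, below and above their vehicle ranges, and the part of this in the members' values was not tested.

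In granulocytes *RARG*, *TGM2* and *RXRA* rose, and *RARA*, *DHRS3*, *DHRS9* and *CD38* fell. Of the 9 members tested, 3 were higher, 4 were lower and 2, *RARB* and *CYP26A1*, did not pass. Over the 16944 genes tested 49.3% passed, 24.4% higher and 24.8% lower. The median log2 fold change was 0.02 over the 9 members and -0.005 over all genes tested. With TNF-α the granulocyte genes summed to 4219 to 4511 CPM, above their vehicle range. This followed *NCF1*, which has near-identical pseudogenes (1217 and 1950 CPM on average), while *CYBB* averaged 2106 and 2126 CPM and *ITGAM* 297 and 252 CPM. The monocyte and macrophage genes summed to 30.1 to 33.8 CPM, below their vehicle range, following *CSF1R* (49.7 and 32.2 CPM on average). The part of this in the members' values was not tested. Each granulocyte vehicle library serves both here and in the comparison of the vehicle groups, as does each promyelocyte vehicle library, and these comparisons are therefore not independent.

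**Figure D2:**
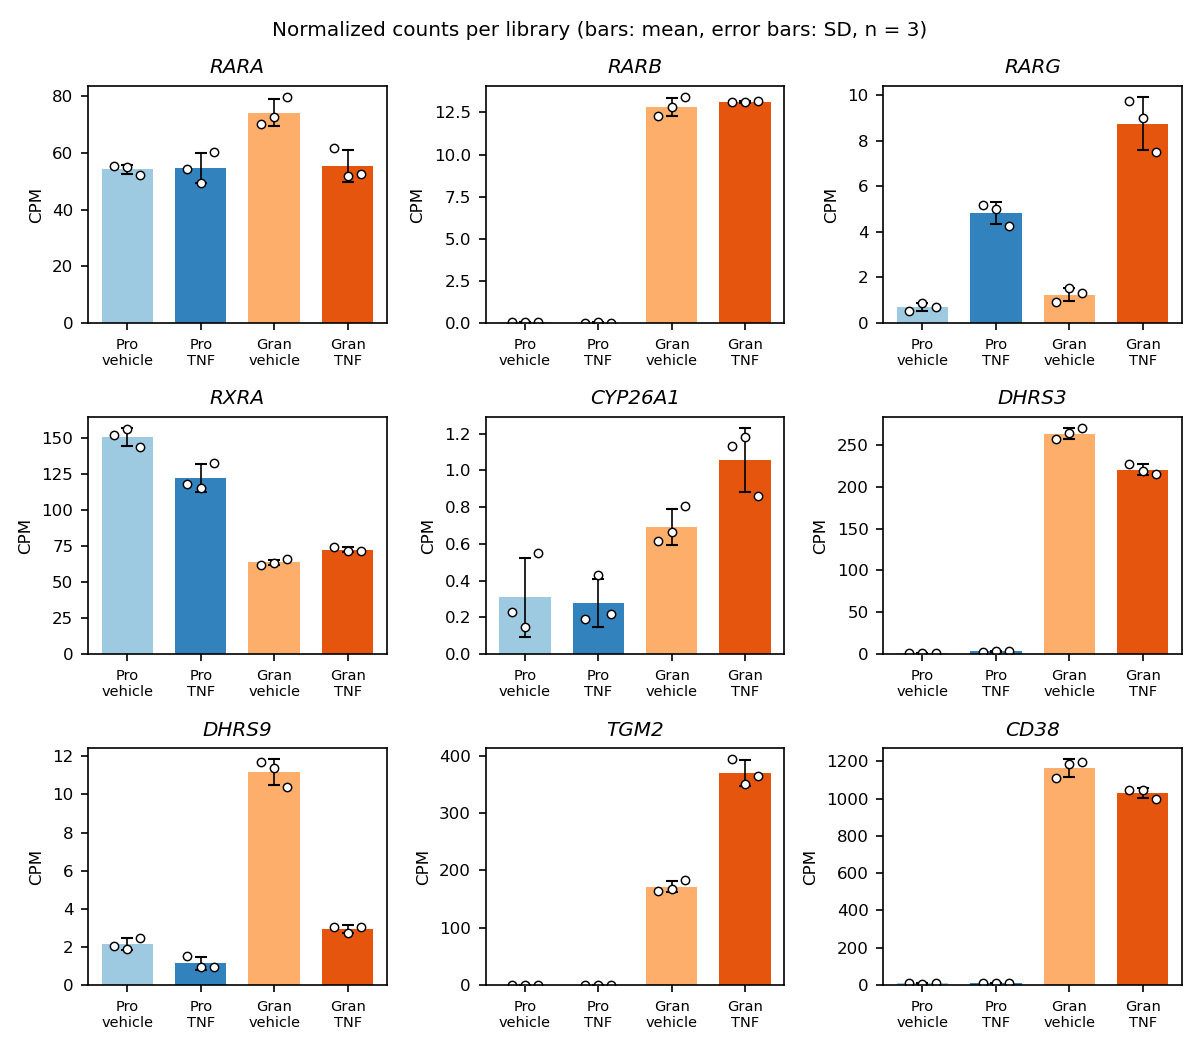
Normalized counts (CPM, linear axes from 0) of the 9 detected members in promyelocyte (Pro) and granulocyte (Gran) libraries with vehicle or TNF-α. Points are libraries, bars means and error bars SD of 3 libraries; *RARG* is higher with TNF-α in both cell types, and *TGM2* is higher with TNF-α in granulocytes.

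*RARG* encodes the γ isotype of the receptor and had the largest response of the members tested in either cell type. In promyelocytes it had 0.522, 0.882 and 0.725 CPM with vehicle and 5.19, 5 and 4.28 CPM with TNF-α. In granulocytes the values were 0.923, 1.52 and 1.31 CPM with vehicle and 9.76, 9.02 and 7.5 CPM with TNF-α. Every TNF-α library exceeded every vehicle library of its cell type by a wide margin. The log2 fold change was 2.79 in promyelocytes (SE 0.223, edgeR adjusted p = 1.14e-08) and 2.78 in granulocytes (SE 0.174, edgeR adjusted p = 2.64e-16). These correspond to 6.91-fold and 6.85-fold. Granulocyte and promyelocyte responses differed by 0.03 on the log2 scale with an SE of 0.353 (edgeR adjusted p = 0.973), and its sign changed between settings. The counts behind the vehicle values were low, 16 to 24 in promyelocytes and 24 to 46 in granulocytes.

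The other receptors moved little or not detectably. *RARA* in granulocytes stood at 70.4, 72.7 and 79.7 CPM with vehicle and at 61.9, 51.8 and 52.5 CPM with TNF-α. The groups did not overlap, and the log2 fold change was -0.44 (SE 0.0615, edgeR adjusted p = 1.68e-07). In promyelocytes *RARA* had 55.4, 55.0 and 52.4 CPM with vehicle and 54.3, 49.5 and 60.3 CPM with TNF-α, which overlapped (log2 fold change 0.04, SE 0.0696, edgeR adjusted p = 0.781). *RARB* in granulocytes had 12.3, 12.8 and 13.4 CPM with vehicle and 13.1, 13.1 and 13.2 CPM with TNF-α. This was a log2 fold change of 0.02 (SE 0.0878, edgeR adjusted p = 0.868), which turned to -0.11 when library totals were used without TMM. With 0, 2 and 0 counts in the promyelocyte libraries with TNF-α, a response of *RARB* was not detectable there at this depth.

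*RXRA* moved in opposite directions in the 2 cell types. In promyelocytes it fell, from 152, 156 and 144 CPM with vehicle to 118, 115 and 133 CPM with TNF-α (log2 fold change -0.28, SE 0.0634, edgeR adjusted p = 0.00414). In granulocytes it had 62, 63 and 65.8 CPM with vehicle and 74.6, 71.7 and 71.3 CPM with TNF-α, a log2 fold change of 0.17 (SE 0.0528, edgeR adjusted p = 0.00597). The groups did not overlap in either cell type. The granulocyte call was lost when library totals replaced TMM (log2 fold change 0.04, edgeR adjusted p = 0.502) and when trends with GC content and gene length were removed (0.05, edgeR adjusted p = 0.357).

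The make-up of the RAR family shifted with these changes. As shares of the summed RAR level per kilobase, *RARA* made up 98.7 ± 0.353% in vehicle promyelocytes and 92.4 ± 1.33% with TNF-α (SD, n = 3). In granulocytes it made up 80.8 ± 0.503% with vehicle and 68.9 ± 1.61% with TNF-α. *RARG* accounted for 1.19 ± 0.302% and 7.59 ± 1.26% in promyelocytes, and for 1.25 ± 0.287% and 10.1 ± 0.903% in granulocytes. *RARB* held 17.9 ± 0.362% in vehicle granulocytes and 21.1 ± 1.64% with TNF-α, and at most 0.169% in any promyelocyte library. *RARA* thus remained the main RAR transcript in every library.

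The reductase *DHRS3* rose in promyelocytes and fell in granulocytes. In promyelocytes it had 1.01, 0.993 and 0.828 CPM with vehicle and 2.93, 3.29 and 3.34 CPM with TNF-α, a log2 fold change of 1.78 (SE 0.218, edgeR adjusted p = 5.32e-06). In granulocytes it had 257, 264 and 270 CPM with vehicle and 228, 219 and 215 CPM with TNF-α, a log2 fold change of -0.27 (SE 0.0479, edgeR adjusted p = 1.07e-05). The groups were apart in both cell types. Even with TNF-α the promyelocyte level stayed far below that of every granulocyte library.

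*DHRS9* fell in both cell types, and more so in granulocytes. There its level went from 11.7, 11.4 and 10.4 CPM with vehicle to 3.03, 2.72 and 3.07 CPM with TNF-α, still above the 2.48 CPM of the highest vehicle promyelocyte library. The log2 fold change was -1.94 (SE 0.127, edgeR adjusted p = 8.59e-16), a 3.85-fold decrease. In promyelocytes the values were 2.06, 1.91 and 2.48 CPM with vehicle and 1.54, 0.964 and 0.945 CPM with TNF-α, with a log2 fold change of -0.89 (SE 0.254, edgeR adjusted p = 0.0217). That call was lost without vehicle library 3 (edgeR adjusted p = 0.0856), TNF-α library 2 (0.101) or TNF-α library 3 (0.0886).

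*TGM2* rose in granulocytes, from 164, 168 and 183 CPM with vehicle to 394, 350 and 365 CPM with TNF-α. The groups were far apart, with a log2 fold change of 1.09 (SE 0.0528, edgeR adjusted p = 9.79e-20), or 2.14-fold. In promyelocytes 11, 18 and 22 counts with vehicle stood against 22, 16 and 23 with TNF-α. These overlapped (log2 fold change 0.28, SE 0.375, edgeR adjusted p = 0.683), and the log2 fold change ranged from 0.00 without vehicle library 1 to 0.51 without vehicle library 3.

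*CD38* fell slightly in granulocytes, from 1110, 1186 and 1195 CPM with vehicle to 1046, 1047 and 998 CPM with TNF-α. The groups did not overlap, and the log2 fold change was -0.19 (SE 0.0514, edgeR adjusted p = 0.00222). In promyelocytes 8.62, 6.99 and 9.9 CPM with vehicle and 11.2, 10.0 and 9.67 CPM with TNF-α overlapped (log2 fold change 0.30, SE 0.125, edgeR adjusted p = 0.127). Without promyelocyte vehicle library 3 that comparison was called (log2 fold change 0.43, edgeR adjusted p = 0.0285).

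*CYP26A1* in granulocytes had 16, 20 and 24 counts with vehicle and 25, 33 and 19 with TNF-α. The counts overlapped, but the scaled levels did not, with 0.804 CPM in the highest vehicle library and 0.859 CPM in the lowest TNF-α library. The log2 fold change of 0.59 (SE 0.326) did not pass the threshold (edgeR adjusted p = 0.134). In promyelocytes it had 7, 4 and 16 counts with vehicle and 5, 12 and 7 with TNF-α, too few for the expression filter.

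**Figure D3:**
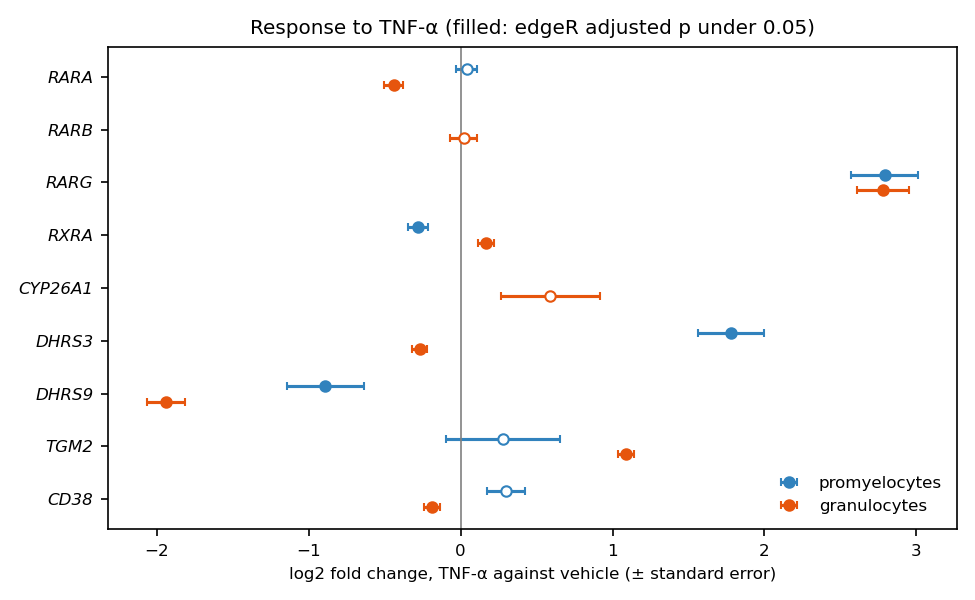
Log2 fold changes of TNF-α against vehicle with standard errors for the members tested, in promyelocytes (blue) and granulocytes (orange). Filled points passed an edgeR adjusted p under 0.05; *RARG* lies near 2.8 in both cell types, and *DHRS3* and *RXRA* lie on opposite sides of 0.

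Whether a response differed between the granulocyte and the promyelocyte experiment was tested with an interaction test over the 12 libraries together. In such a difference cell type, cell density and experiment cannot be told apart. Of the 9 members tested, 2 had a more positive response in granulocytes, *RXRA* and *TGM2*, and 4 a more negative one, *RARA*, *DHRS3*, *DHRS9* and *CD38*. Over the 18124 genes tested 24.0% passed, 14.1% with a more positive and 9.88% with a more negative response in granulocytes. The largest difference among the called members was that of *DHRS3*, -2.01 on the log2 scale (SE 0.15, edgeR adjusted p = 8.85e-11). *RXRA* differed by 0.49 (SE 0.0826, edgeR adjusted p = 5.84e-05) and *RARA* by -0.44 (SE 0.103, edgeR adjusted p = 0.0024). *DHRS9* and *CD38* differed by -1.01 (edgeR adjusted p = 0.00461) and -0.45 (edgeR adjusted p = 0.00489).

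The difference for *TGM2* was 0.85 (SE 0.287, edgeR adjusted p = 0.0323) and rests on 11 to 23 counts per promyelocyte library. It was no longer called with library totals (0.69, edgeR adjusted p = 0.0677), without the expression filter (0.76, edgeR adjusted p = 0.0501), or without promyelocyte vehicle library 2 or 3 or TNF-α library 2 or 3 (edgeR adjusted p = 0.113, 0.203, 0.0976 and 0.0514). For *CYP26A1* the difference of 0.76 had an SE of 0.636 (edgeR adjusted p = 0.432). No difference is given for *RARB*, since its promyelocyte libraries were all below the floor.

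The rest of the retinoid pathway was described with 4 lists of genes that are no members, 68 genes in all, with *NRIP1* in 2 lists. In the vehicle comparison 47 of these were tested, of which 35 were higher in granulocytes and 9 lower, where 36.6% and 38.5% of all genes were. Among the higher ones, *NRIP1*, *ALDH1A2* and *PLAAT4* passed the filter only through their granulocyte libraries. With TNF-α, 6 of 44 tested were higher and 7 lower in promyelocytes, beside 8.15% and 6.65% of all genes. In granulocytes 16 of 49 were higher and 18 lower, beside 24.4% and 24.8% of all genes. The responses of 18 of 49 differed between the cell types, 9 in each direction, beside 24.0% of all genes. The median log2 fold change over the lists was -0.04 in promyelocytes and 0.00 in granulocytes, with -0.009 and -0.005 over all genes tested.

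Of 15 receptors and coregulators, 14 were tested in the vehicle comparison. In granulocytes 12 were higher and 2 lower, beside 36.6% and 38.5% of all genes. *NCOA3*, a coactivator of nuclear receptors, differed by 3.69 on the log2 scale (SE 0.0603, edgeR adjusted p = 2.1e-29). *NRIP1*, which binds ligand-bound receptors as a corepressor, had 6 counts in all in the vehicle promyelocyte libraries and 1434 in the granulocyte ones, a ratio of 241 after scaling (95% exact interval 110 to 658, counting error only). *PRAME*, a repressor of RAR signalling, was 0.99 higher, whereas the deacetylase *HDAC3* and the Mediator subunit *MED1* were lower (-0.60 and -0.48).

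With TNF-α, 3 of 14 receptors and coregulators tested in granulocytes rose and 7 fell, where 49.3% of all genes were called. In promyelocytes 2 of 13 fell and none rose, a share near the 14.8% of all genes called. Among those that rose in granulocytes there were *NRIP1* (log2 fold change 1.12) and the acetyltransferase *EP300* (0.19). Those that fell included *NCOA3* (-0.67), *PRAME* (-0.38) and *RXRB*, a sister of *RXRA* (-0.31). The 2 that fell in promyelocytes were *PML* (-0.38) and *PRAME* (-0.25). The response of *NCOA3* differed between the cell types by -0.53 (edgeR adjusted p = 3.72e-05).

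Of 17 genes of retinoid synthesis and storage, 11 were tested in the vehicle comparison. In granulocytes 4 were higher and 5 lower, shares near the 36.6% and 38.5% of all genes. *RDH10*, which oxidizes retinol, was lower in granulocytes, with a log2 difference of -2.07, and *RDH14* (-0.81) and *DHRS4* (-0.67) were lower as well. *BCO2*, which cleaves carotenoids, was 0.76 higher and *DHRS7* 0.38 higher. The widest difference of the list was that of *ALDH1A2*, an enzyme that makes retinoic acid from retinaldehyde, named here after its values were seen. It had 1 to 6 counts in vehicle promyelocytes and 64 to 79 in vehicle granulocytes, a log2 difference of 4.20 (SE 0.385, edgeR adjusted p = 3.89e-11). Its relatives *ALDH1A1* and *ALDH1A3* had at most 0 and 1 counts in any library. With TNF-α, *RDH13* fell in both cell types (log2 fold change -0.39 in promyelocytes and -0.72 in granulocytes), *RDH10* (-0.55) and *BCO2* (-0.49) fell in granulocytes, and *RDH11* rose there (0.34).

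Of 13 genes of retinoid uptake, binding and breakdown, only 2 were tested in the vehicle comparison. *FABP5*, a lipid carrier that also binds ATRA, had 228 ± 17 CPM in vehicle promyelocytes and 20.6 ± 1.61 CPM in vehicle granulocytes (SD, n = 3), a log2 difference of -3.48 (SE 0.0656, edgeR adjusted p = 7.13e-28). *CYP26C1*, the third CYP26 enzyme, was 1.12 higher on the log2 scale. With TNF-α both rose in granulocytes, by 0.30 and 0.49, and none of the 3 genes tested passed in promyelocytes. The remaining gene that rose in granulocytes was *STRA6*, the membrane receptor that takes up retinol, named here after its values were seen. It had 0 to 2 counts in the vehicle granulocyte libraries and 77 to 99 with TNF-α, a ratio of 77.8 over 4 against 261 counts (95% exact interval 30 to 288, counting error only). *STRA6* passed the expression filter only through the libraries with TNF-α.

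Of 24 further genes known to respond to ATRA in myeloid cells, 21 were tested in the vehicle comparison. In granulocytes 19 were higher and 1, *TNFSF10*, lower, beside 36.6% and 38.5% of all genes. *PLAAT4* and *ASB2*, known as ATRA-induced genes, were 6.15 and 6.01 higher on the log2 scale. The median log2 difference of the list was 2.81, with -0.012 over all genes tested. Genes were listed as known to respond to ATRA and with earlier results of these data known. *PLAAT4* and *NRIP1* passed the filter only through their granulocyte libraries. The direction of the list is therefore a description and no independent support. With TNF-α, 6 of 19 rose and 4 fell in promyelocytes, beside 8.15% and 6.65% of all genes, and 10 of 21 rose and 8 fell in granulocytes, beside 24.4% and 24.8%. *TNFAIP2*, also known as a TNF-α induced gene, rose by 4.40 and 3.50 on the log2 scale, and the death ligand *TNFSF10* by 1.61 and 2.08. *CEBPE*, a transcription factor of granulocyte maturation, fell in both (-0.46 and -1.22), as did the adaptor *PRAM1* (-0.53 and -0.45).

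Within that list *CDKN1A*, the cell cycle inhibitor p21, had the largest response in granulocytes, from 1.42 ± 0.231 to 20.5 ± 2.93 CPM (SD, n = 3), a log2 fold change of 3.82 (SE 0.137, edgeR adjusted p = 8.97e-24). The chemokine *CCL2* rose in both, by 2.41 in promyelocytes and by 1.12 in granulocytes, where its response differed by -1.25 (edgeR adjusted p = 2.51e-12). *BHLHE40*, a transcriptional repressor, fell by 0.52 in promyelocytes and rose by 1.21 in granulocytes, where its response differed by 1.76 (edgeR adjusted p = 1.61e-12).

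**Figure D4:**
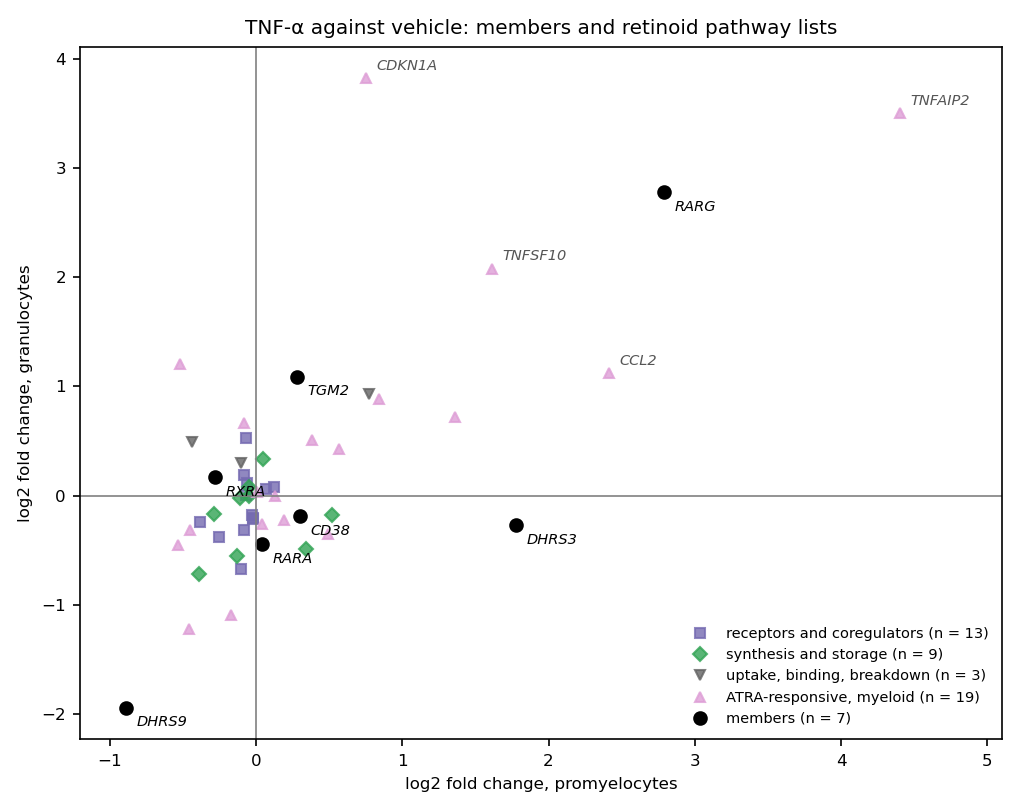
Log2 fold change of TNF-α against vehicle in granulocytes against that in promyelocytes, for the members (black) and the genes of the 4 lists that were tested in both. *RARG* lies at 2.79 and 2.78, beside *TNFAIP2* at 4.40 and 3.50; *DHRS3* lies at 1.78 on the promyelocyte axis and at -0.27 on the granulocyte axis.

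Profiles were compared for members whose mean CPM over the 12 libraries had a log2 of 1 or more, which *RARB* reached through its granulocyte libraries. The genes with the most similar profile were listed by Pearson's r of log2 levels over the 12 libraries, among 12077 genes. The 12 libraries share their groups of treatment and experiment, so r describes mainly the order of the 4 groups. *RARG* was most like *PDE4B* (r = 0.989), a phosphodiesterase that degrades cyclic AMP, *ZC3H12A* (0.987), an RNase that limits inflammatory transcripts, and *STX11* (0.986). *DHRS9* was most like *CELF2* (r = 0.992), *MAP3K3* (0.989) and *RUNX2* (0.988). *RARA* had no profile as close, with *EFNB1* leading (r = 0.948), and *RXRA* was most like *CBX6* (0.996). For *RARB*, *DHRS3*, *TGM2* and *CD38* the leading genes all reached r = 0.999. These were the members with the widest differences between the vehicle groups.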

How the data were processed

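HL-60/S4 RNA depleted of ribosomal RNA was sequenced in 12 libraries, and groups were taken from the labels. The authors deposited raw counts of read pairs per gene, made with STAR 2.5.3a (hg38, GENCODE annotation) and featureCounts 1.5.2 on the reverse strand, primary alignments only and without normalization. The submitters' processing notes also name FastQC 0.11.4 and DESeq2 1.16.1. The deposited file also gives gene lengths in bases. None of the members shares exon bases with another gene on its strand, so no read pairs were lost to such overlap.

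Symbols were matched to 57532 of 58288 identifiers. Each comparison was fitted over all genes with edgeR 4.0.16 in R 4.3.3: TMM, filterByExpr (minimum count 10, minimum total 15), and the quasi-likelihood test, with p-values adjusted by Benjamini-Hochberg and called under 0.05. Printed CPM were scaled with TMM over all 12 libraries. The smallest two-sided p that exact permutation allows with 3 libraries per group is 0.1, and the tests draw on the variance that edgeR models over all genes. Each library came from its own flask of 1 cell line, so p-values measure the spread between flasks. Counting intervals and floors (3 counts) cover counting error only. Profiles were compared on log2(CPM + 0.5).

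The members and the lists were chosen with earlier results of these data known. Besides the members, genes are named by rule: in each list and comparison up to 3 increases and 3 decreases with the largest log2 fold change among called genes whose average CPM had a log2 of 1 or more, and the 3 closest profiles of each member. Of the profiles the leading ones are printed. Some genes that the rule names are not reported here. Alternatives were DESeq2 1.42.0, its size factors in edgeR, library totals, no filter, a block for the replicate number, a joint fit of the 12 libraries, a stricter threshold of 0.01 and the omission of each library in turn. The removal of trends with GC content and length (splines with 5 degrees of freedom) was added after seeing the data. The procedure was tested on simulated data. Promoter windows came from RefSeq, and all 21 were identical to hg38. Tables were handled with Python 3.11.15, numpy 2.4.6 and pandas 2.3.3, and plots were drawn with matplotlib 3.10.9.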

Additional observations from a re-analysis of the deposited data

Results flagged for a closer look

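The responses of 6 of the 9 members tested differed between the cell types by the interaction test in edgeR. Over all 18124 genes tested 24.0% passed. Differences between the responses to TNF-α are given as granulocytes minus promyelocytes on the log2 scale. *DHRS3* differed by -2.01 (edgeR adjusted p = 8.85e-11), having risen in promyelocytes and fallen in granulocytes. *RXRA* differed by 0.49 (edgeR adjusted p = 5.84e-05), with opposite signs in the cell types, although its rise in granulocytes depended on the scaling. *RARA* differed by -0.44 (edgeR adjusted p = 0.0024) and *CD38* by -0.45 (edgeR adjusted p = 0.00489), and both fell in granulocytes without passing the test in promyelocytes. *DHRS9* differed by -1.01 (edgeR adjusted p = 0.00461) and fell in both. *TGM2* differed by 0.85 (edgeR adjusted p = 0.0323), on low promyelocyte counts. Cell type and experiment cannot be told apart in these differences.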

How the results depend on the processing

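Over the alternatives, 454 of 486 values of single members kept their direction and their side of the threshold, 19 lost the call, 1 gained it and 12 changed sign. All sign changes were of values that did not pass: *RARG* in the difference between the responses (0.03 as reported, -0.02 with size factors, -0.13 with library totals, -0.06 without the filter, -0.03 with DESeq2, -0.12 with GC and length trends removed, and -0.15, -0.06, -0.15 and -0.06 without promyelocyte vehicle 2, promyelocyte TNF-α 3, granulocyte vehicle 1 and granulocyte TNF-α 1, within -0.15 to 0.21 over all omissions), *RARB* in granulocytes (-0.11 with library totals, -0.01 without vehicle 1, up to 0.05 without vehicle 3) and *RARA* in promyelocytes (-0.04 without TNF-α 3, up to 0.11 without TNF-α 2). The calls lost or gained are given beside each member above, and the cause was not tested. The number of genes called in promyelocytes moved from 2405 to 1438 at a threshold of 0.01 and ranged from 1598 to 2475 with each library left out, lowest without vehicle 2. The number of genes with different responses moved from 4351 to 2843 at 0.01. With library totals the median of all genes went from -0.005 to -0.135 in granulocytes and from 0.033 to -0.120 in the difference between responses. The share of called genes that were higher went from 49.6% to 31.1% in granulocytes, and in the difference from 58.9% to 30.8%, or 48.4% with size factors. Libraries with the same replicate number did not deviate together (residual correlations -0.295 to -0.158 in promyelocytes and -0.167 to -0.0135 in granulocytes). With the replicate number as a block, 34 of 34 member values kept their call, and 1833 genes were called in promyelocytes. *RARB* and *TGM2* in promyelocytes and *CYP26A1* in all groups rest on low counts.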
